A study of Homo sapiens with 10 samples.

Results

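Respiratory complex I, the NADH:ubiquinone oxidoreductase of the inner mitochondrial membrane, is the entry point of NADH electrons into the respiratory chain. The genes described here are 36 nuclear genes for its subunits, taken by their platform gene symbol. All 36 were on the array, with 42 of its 47323 probes, among 20046 named genes in all. The list does not cover the whole complex, and of 7 mitochondrially encoded ND genes looked for by symbol 0 were found on the array.

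In Meg01, a human megakaryoblastic leukaemia cell line, mRNA was sorted by its ribosome load in cells that carried a short hairpin against ATXN2 (sh95, called knockdown) or a control hairpin (shc002, called control). ATXN2 encodes ataxin-2, a cytoplasmic RNA-binding protein that associates with poly(A)-binding protein. All cells were cultured in 10% fetal calf serum, received lentivirus at a multiplicity of infection of 10, and were sorted for GFP 48 hours later. Lysates were run on gradients of 7 to 46% sucrose. The subpolysomal pool joined fractions 1 to 8 and the polysomal pool fractions 9 to 17, and each was read on an Illumina beadchip, although the series text counts 8 fractions in the latter pool. The controls therefore also carried lentivirus, a hairpin and GFP. ATXN2 was targeted with 1 hairpin in 1 leukaemia line.

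Subpolysomal RNA was on 4 arrays, a control and a knockdown array for each of the label numbers P1 and P3. Polysomal RNA was on 6, likewise paired under P2, P4 and P5, so that the pools have no number in common. The labels speak of 3 independent experiments without saying which P number belongs to which, so p-values measure the spread between these arrays and some arrays may share an experiment. ATXN2 itself was lower on the knockdown array in 5 of 5 pairs, by between -0.32 (P1) and -2.09 (P4) on the log2 scale. Of the 13 megakaryocyte marker genes on the array, 7 were above background on all 10 arrays, among them ITGA2B, GP1BA and GATA1, while the platelet chemokine gene PF4 was above it on none. Erythroid markers were above background on all arrays for 7 of 9 genes, CD14 and LYZ for 2 of 8 monocyte and granulocyte genes, and none of 5 lymphoid genes was. Between 18454 and 20716 probes per array were above background, and the highest intensity of an array ranged from 11164 (knockdown polysomal P5) to 140375 (control polysomal P2). With 2 or 3 arrays in a group, precision is limited by their number.

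Complex I has an L shape. Its peripheral arm reaches into the mitochondrial matrix and holds the N module, where NADH is oxidised, and the Q module, where electrons pass along iron-sulfur clusters to ubiquinone. Its membrane arm pumps protons and is built around the mitochondrially encoded ND subunits, to which many nuclear accessory subunits are attached. The nuclear subunits are translated on cytosolic ribosomes and imported, so the ribosome load of their mRNAs is the step read in the polysomal and subpolysomal pools. Megakaryocytes and their platelets contain mitochondria and use oxidative phosphorylation beside glycolysis.

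Several subunit mRNAs begin with a short leader in which the start codon lies in the sequence AAGATGGCG. This is the core of the TISU element (translation initiator of short 5′ leaders), known to direct initiation close to the cap without scanning. It bears on a readout of ribosome load, and for that reason the sites are printed here. RefSeq promoter windows of GRCh38.p14, from 250 bases before to 50 bases after an annotated start, held a window for 32 of the 36 members, all but NDUFB5, NDUFB9, NDUFC2 and NDUFS5. Of these, 6 carried the motif on the gene's own strand after the start, its first base between positions 11 and 26 when the start of that window is counted as 1. NDUFB8 has 2 windows, and its site lies at position 18 from the inner start and 70 from the outermost one. Several windows were listed for 4 of the members and for 5191 of all genes, and a motif in any of them was counted. Each site is printed with 30 bases, the motif in capitals, its ATG at the fourth to sixth capital.
NDUFB8: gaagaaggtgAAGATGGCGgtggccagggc
NDUFS4: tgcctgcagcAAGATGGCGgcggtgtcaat
NDUFA9: attgtgggaaAAGATGGCGgctgccgcaca
NDUFS7: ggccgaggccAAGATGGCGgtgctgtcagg
NDUFA7: tcgcggacggAAGATGGCGtccgccacccg
NDUFA6: atgctttggcAAGATGGCGgggagcggcgt
These lie at chr10:100529835-100529864 on the minus strand (NDUFB8), chr5:53560650-53560679 on the plus strand (NDUFS4), chr12:4649114-4649143 on the plus strand (NDUFA9), chr19:1383914-1383943 on the plus strand (NDUFS7), chr19:8321342-8321371 on the minus strand (NDUFA7) and chr22:42090728-42090757 on the minus strand (NDUFA6). Thus 6 of 32 members (18.8%) had the motif within their window, against 2.14% of 27305 genes with a window when both strands were searched. On the gene's own strand after the start the share of all genes was 1.19%. Of 30 subunit genes of the other respiratory complexes with a window, 10% held it on either strand and 6.67% on their own strand after the start. Of 16 complex I assembly factor genes with a window, 6.25% held it by either count. A match is a description of these letters and no measured initiation site.

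Further motifs were searched on both strands. GCATGCGC, the core bound by the mitochondrial gene regulator NRF1, was in the windows of 6 members (18.8%) against 3.68% of all genes. They were NDUFA5, NDUFA6, NDUFA8, NDUFB4, NDUFS6 and NDUFS7. CCGGAAG, a site of ETS factors whose last letters AAG can overlap the start of AAGATGGCG, was in 15.6% of members and 12.2% of all genes with a window. CCAAT was in 25% against 39.7%, and TATAAA in 9.38% against 14%. No test was run on these shares.

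Of the 36 subunit genes, 30 were above background on all 10 arrays. Another 5, NDUFS1, NDUFA5, NDUFC2, NDUFB1 and NDUFB4, were above it on between 3 and 6 arrays and lay close to the limit of 7.62 to 7.64 (log2 intensity). NDUFS6, an accessory subunit of the peripheral arm with a zinc site, read 7.43 to 7.53 and was above background on none, so it was not tested. The 35 genes kept all met a filter of at least 2 arrays above background. RefSeq lists pseudogenes under the symbols of 18 of the 36 genes, and whether the probes also detect them was not tested. The heat map of members by array shows the values that the following comparisons rest on.

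**Figure D1:**
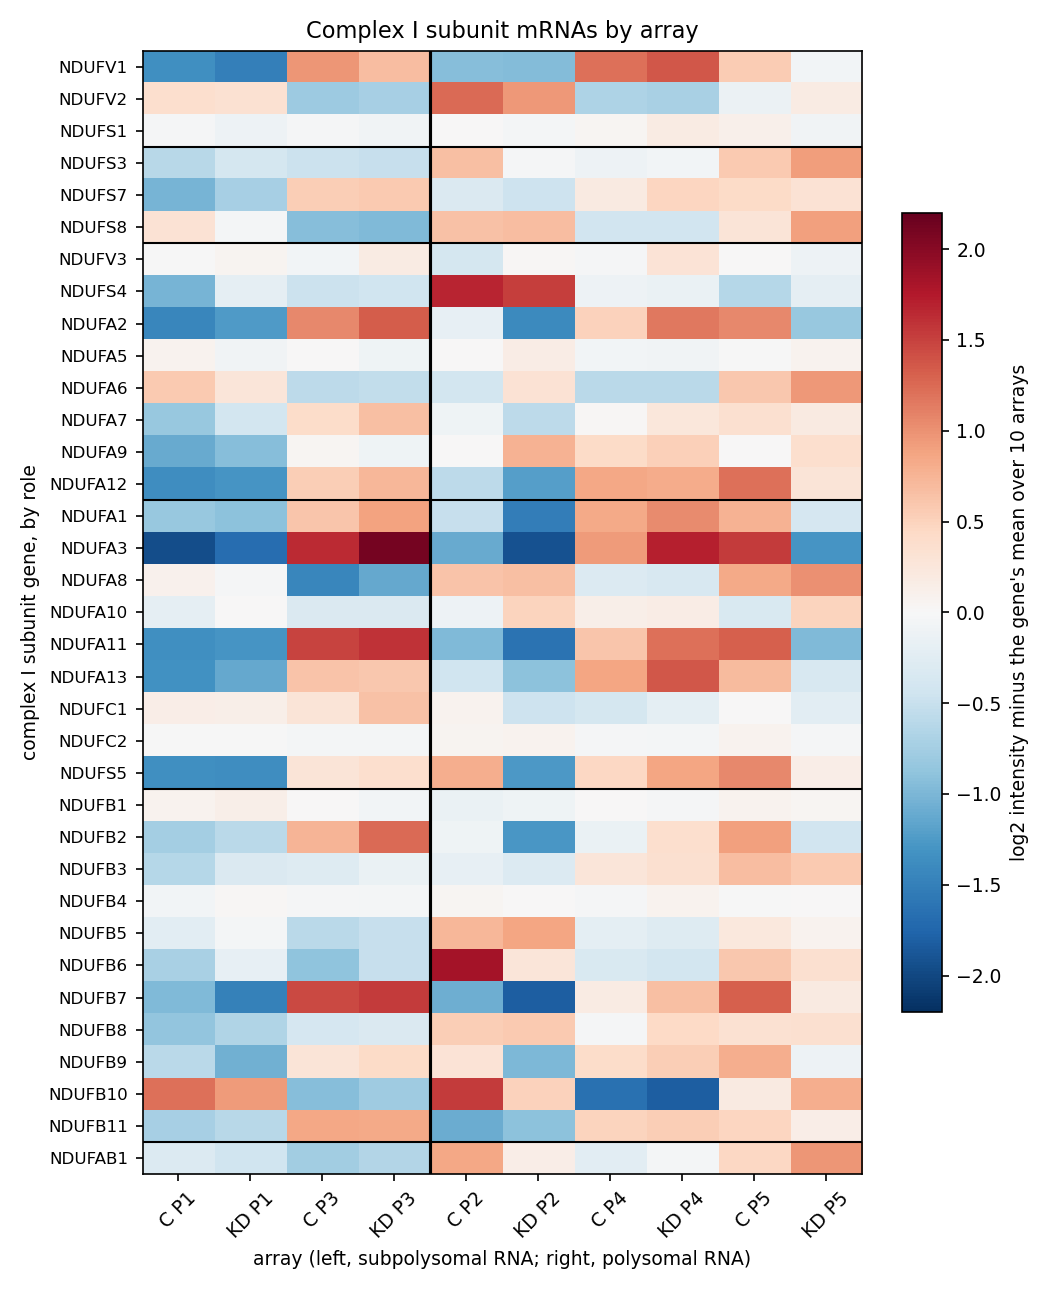
Log2 intensity of 35 complex I subunit genes on 10 arrays, each gene minus its own mean over the arrays, with red higher and blue lower; C is control and KD knockdown, black lines part the roles and the pools. Many rows change colour between P numbers of a pool in both hairpins, NDUFA3 from 7.75 to 11.81 over all arrays, while the 5 genes near background stay pale.

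In cells with the control hairpin, complex I mRNAs as a group read higher in polysomal than in subpolysomal RNA, relative to the other mRNAs of each array, but no single subunit passed the test. The median difference over 35 members was 0.46 on the log2 scale, against 0.01 over 13903 genes, and 27 of 35 were higher. The array medians of all genes, 7.89 to 7.95, lay near the background limit, and those of the members were 9.68 to 11.23. No comparison with genes of a like level was made. Limma with Benjamini-Hochberg adjustment called 0 members, where it called 32 of 26902 probes (0.119%), 3 higher and 29 lower. With the P number as a random block the 32 became 15. At an unadjusted p under 0.05 it had 3 of 35 members (8.57%) and 6.4% of all genes. In bulk RNA, fewer cells of a type and less RNA per cell cannot be told apart, and the values are relative, so a shift of all mRNAs together would not appear. The median was 0.07 without control subpolysomal array P1, 0.92 without control subpolysomal array P3 and 0.28 without control polysomal array P5. Erythroid markers moved with it, with a median of 0.31 and 8 of 9 higher, 3 of them at an unadjusted p under 0.05. Their list median per array was 8.67 and 10.05 in subpolysomal and 9.46 to 10.92 in polysomal control RNA. The median difference was 0.07 over 11 megakaryocyte, 0.02 over 5 monocyte and granulocyte and -0.01 over 5 lymphoid markers. The part of these markers in the result was not tested.

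With the ATXN2 hairpin the median polysomal minus subpolysomal difference was 0.19, against 0.03 over all genes, with 23 of 35 members higher. Limma again called 0 members and 43 of 26902 probes (0.16%), 7 higher and 36 lower. Unadjusted, 4 of 35 members (11.4%) and 8.76% of all genes were under 0.05. The direction of this median depended on the scaling of the arrays, as it was -0.01 on the authors' log2 values without quantile normalization, where 17 of 35 members were higher. In the control cells that scaling gave 0.43. The median in knockdown cells was 0.02 without knockdown polysomal array P4, 0.09 without polysomal P5 and 0.32 without polysomal P2, and 0.05 and 0.53 without subpolysomal P1 and P3. Erythroid markers had a median of 0.12 here, with 6 of 9 higher.

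NDUFB8, an accessory subunit of the distal membrane arm that is widely used as a blot marker of assembled complex I, had the smallest p among the members in both pool comparisons. In control cells its subpolysomal arrays read 11.36 (P1) and 11.84 (P3) and its polysomal arrays 12.76 (P2), 12.19 (P4) and 12.55 (P5). In knockdown cells the subpolysomal arrays read 11.56 and 11.90 and the polysomal arrays 12.80, 12.65 and 12.57. All 6 polysomal arrays were above all 4 subpolysomal arrays. The difference was 0.90 (SE 0.21, 95% confidence interval 0.41 to 1.40, limma adjusted p 0.342) in control and 0.94 (SE 0.21, interval 0.44 to 1.44, adjusted p 0.229) in knockdown cells, 1.87-fold and 1.92-fold. Neither passed the threshold. Without quantile normalization the control difference was 0.99 and the knockdown difference 0.27, and the pools overlapped in both.

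NDUFS3, a core subunit of the Q module, showed the next smallest p in control cells. Its control subpolysomal arrays read 11.26 (P1) and 11.40 (P3), and its control polysomal arrays 12.52 (P2), 11.76 (P4) and 12.43 (P5). Its knockdown subpolysomal arrays read 11.48 and 11.36, and the polysomal ones 11.84, 11.81 and 12.78. The pools did not overlap in either hairpin, with a difference of 0.91 (SE 0.34, limma adjusted p 0.777) in control and 0.72 in knockdown cells. These were 1.09 and 0.24 on the authors' values. NDUFAB1, the mitochondrial acyl carrier protein that sits in both arms, differed by 0.89 and 0.90 and also did not overlap, with 1.07 and 0.17 on the authors' values.

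NDUFC1, a small subunit of the proximal membrane arm, ran the other way. In subpolysomal RNA it read 8.90 (P1) and 9.05 (P3) in control and 8.90 and 9.41 in knockdown cells. In polysomal RNA it read 8.84 (P2), 8.37 (P4) and 8.77 (P5) in control and 8.31, 8.55 and 8.53 in knockdown cells. The polysomal arrays were below the subpolysomal ones in both hairpins. Its difference was -0.31 (SE 0.19, limma adjusted p 0.999) in control and -0.69 (SE 0.19, 95% confidence interval -1.14 to -0.24, adjusted p 0.378) in knockdown cells. It was -0.25 and -0.61 on the authors' values.

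The widest pool differences belonged to genes with wide errors. In control cells the highest were NDUFB6, 2.83-fold (SE 0.57 on the log2 scale, limma adjusted p 0.782), NDUFS5 with a log2 difference of 1.31 (SE 0.79) and NDUFA8 with 1.06 (SE 0.64). NDUFB6 belongs to the distal membrane arm, and NDUFS5 and NDUFA8 are subunits with paired cysteine motifs on the intermembrane-space side. After NDUFC1, the lowest were NDUFA6 with -0.13 (SE 0.60) and NDUFB11 with -0.11 (SE 0.77), both far within their errors. In knockdown cells NDUFA9, which binds NADPH at the junction of the arms, read 1.07 (SE 0.38, adjusted p 0.532) and NDUFA8 1.02 (SE 0.64). NDUFB2 read -0.77 (SE 0.76) and NDUFA3 -0.72 (SE 1.71). NDUFA10, a nucleoside kinase-like subunit, had the third smallest p in knockdown cells with 0.53 (SE 0.17, adjusted p 0.471). Its second probe read -0.15 (SE 0.78) in that comparison, and the brighter probe 0.21 on the authors' values.

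**Figure D2:**
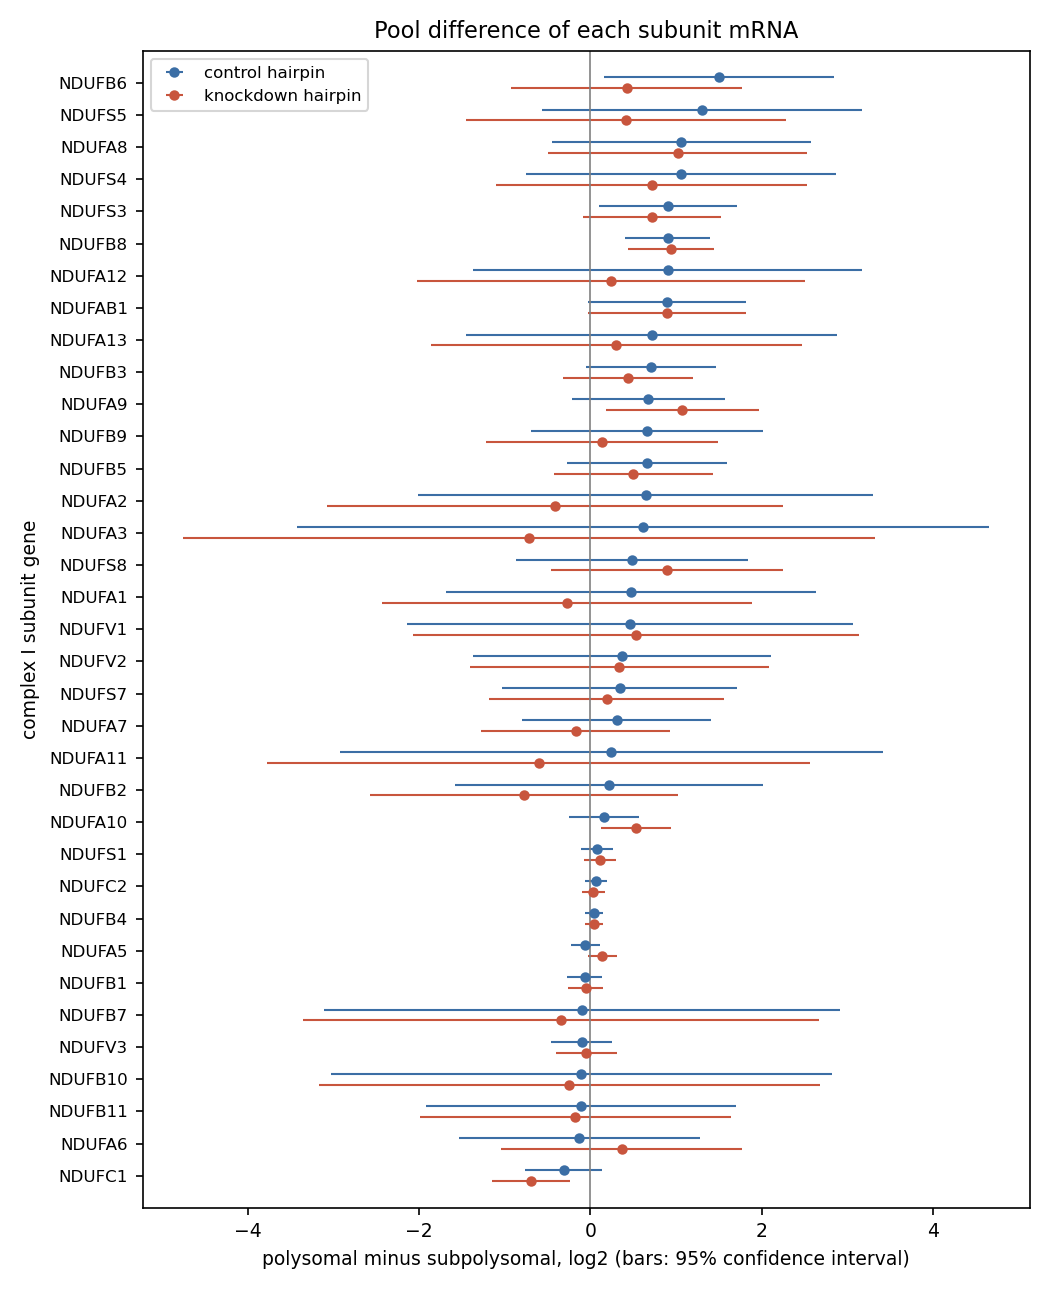
Polysomal minus subpolysomal log2 difference of each of 35 subunit genes with its 95% confidence interval from limma, in control (blue) and knockdown (red) cells, ordered by the control value. Most intervals include 0; those of NDUFB8 exclude it in both hairpins before adjustment, and those of NDUFA3 and NDUFA11 are among the widest.

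Counted by arrays rather than by the model, 10 of 35 members (28.6%) had polysomal arrays that did not overlap the subpolysomal arrays in control cells, 9 higher and NDUFC1 lower. The same was true of 18.4% of all genes. The 9 were NDUFS1, NDUFS3, NDUFS5, NDUFB3, NDUFB5, NDUFB6, NDUFB8, NDUFB9 and NDUFAB1. In knockdown cells 8 of 35 (22.9%) did not overlap, 7 higher and NDUFC1 lower, against 23.7% of all genes. The 7 were NDUFS1, NDUFS3, NDUFS4, NDUFA9, NDUFA10, NDUFB8 and NDUFAB1. NDUFS1, in both lists, lay close to the background limit. On the authors' values the order against all genes turned in control cells, with 2 of 35 members (5.71%), NDUFB6 and NDUFS1, against 18.4% of genes. In knockdown cells there were 3 (8.57%), NDUFA9, NDUFS1 and, downward, NDUFC1, against 24% of genes.

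By role, the core subunits all read higher in polysomal RNA in both hairpins, though for some of them the direction is not settled. NDUFS1 lay near background, above it on 0 knockdown subpolysomal arrays and 1 knockdown polysomal array, and differed by only 0.08 and 0.11. In control cells NDUFV1 read 0.46 (SE 1.10) and NDUFV2 0.37 (SE 0.74). The N module genes NDUFV1 (the flavin-binding subunit that takes electrons from NADH), NDUFV2 and NDUFS1 had a median of 0.37 in control and 0.34 in knockdown cells, although NDUFV2 in knockdown cells was -0.17 on the authors' values. The Q module genes NDUFS3, NDUFS7 and NDUFS8 had 0.48 and 0.72, and NDUFS8 in knockdown cells was -0.16 on the authors' values. Of the accessory subunits of the peripheral arm 5 of 8 were higher in each hairpin, with medians of 0.48 and 0.19. In the proximal membrane arm 8 of 9 were higher in control (median 0.47) and 5 of 9 in knockdown cells (0.03), and in the distal membrane arm 7 of 11 (0.22) and 6 of 11 (0.04). None of these differences passed the test.

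The members with the TISU core read as follows in the pools. NDUFB8 is given above. NDUFS4, an accessory subunit needed for a stable N module, differed by 1.06 in control and 0.71 in knockdown cells, NDUFA9 by 0.67 and 1.07, and NDUFS7, which holds the last iron-sulfur cluster before ubiquinone, by 0.34 and 0.19. NDUFA7 differed by 0.31 and -0.17 and NDUFA6, which binds the acyl carrier protein in the peripheral arm, by -0.13 and 0.36. The median of these 6 was 0.51 in control and 0.54 in knockdown cells. That of the 29 other kept members was 0.46 and 0.13, so the values with and without the motif lay close together in control cells. The medians on the authors' values were 0.57 and 0.23 with the motif and 0.43 and -0.12 without it. No test was run on this division.

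Other mitochondrial lists are set beside the subunits in the plot of list medians by array. Nuclear subunits of the other respiratory complexes, 36 kept of 39, had a median pool difference of 0.47 in control and -0.13 in knockdown cells. Complex I assembly factors, which help build the enzyme but are not part of it, had 0.19 and -0.04 over 18 genes. Mitochondrial ribosomal proteins had 0.20 and 0.08 over 80 genes, and cytosolic ribosomal proteins -0.36 and -0.82 over 72 of 76 genes. Limma called 0 genes of these lists, apart from 1 cytosolic ribosomal protein gene called lower in knockdown cells.

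**Figure D3:**
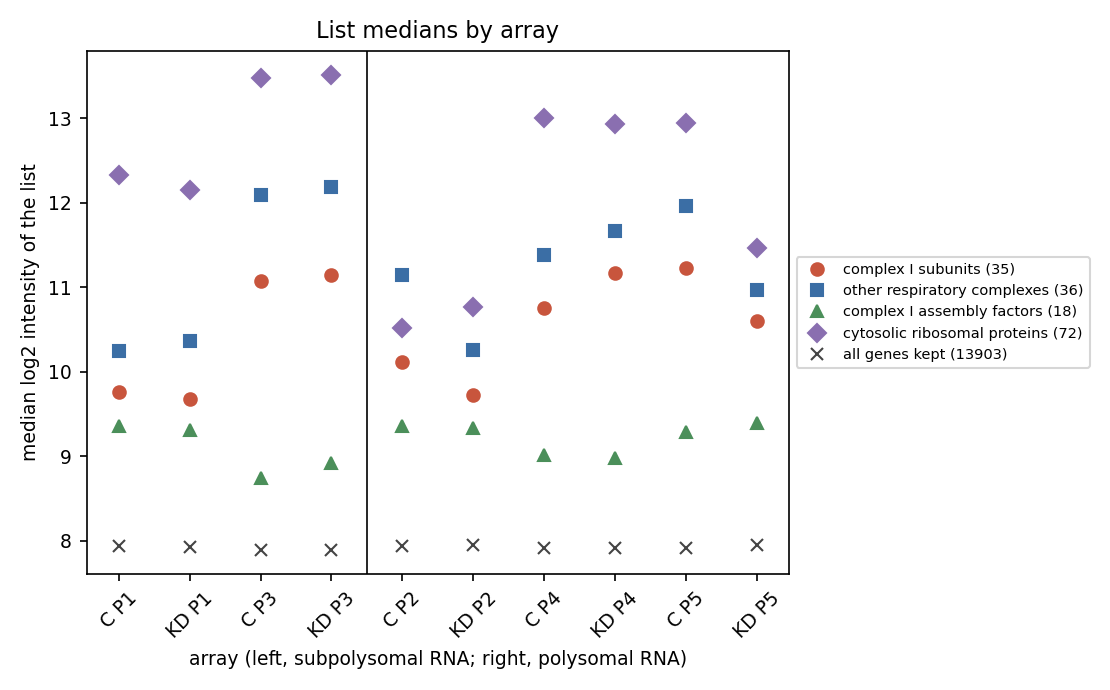
Median log2 intensity of each gene list (genes kept in brackets) on the 10 arrays, subpolysomal left of the line and polysomal right. The complex I median ranged from 9.68 to 11.23 and that of the other respiratory complexes from 10.25 to 12.19, while the median of all genes stayed between 7.89 and 7.95.

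The largest part of the spread of complex I mRNAs followed the P number. Of a member's total sum of squares over the 10 arrays, P number within a pool took a median of 65.3%, the pool 9.73% and the hairpin within a pool 5.63%. Over all genes the shares were 53.8%, 11.2% and 6.99%. The P number took more than the hairpin in 33 of 35 members and in 87.2% of all genes. NDUFA10 and NDUFB4 were the exceptions, with hairpin shares of 40.7% and 12.9%, and NDUFB4 lay close to background. The shares are not adjusted for degrees of freedom, of which the P number has more than the hairpin and the hairpin more than the pool. Noise alone would thus rank them in that order, so the shares over all genes are given beside those of the members. NDUFB8 had the highest pool share of the 35, 82.6%, with 12.2% for the P number. Shares were not computed for the other lists, whose medians also moved between P numbers. From control subpolysomal P1 to P3 the list median went from 9.765 to 11.07 for complex I. It went from 10.25 to 12.09 for the other respiratory complexes and from 12.33 to 13.48 for cytosolic ribosomal proteins. For assembly factors it went from 9.36 to 8.74, and for mitochondrial ribosomal proteins from 9.815 to 9.88.

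In subpolysomal RNA, P3 was above P1 by more than 1 on the log2 scale in both hairpins for 13 of 35 members (37.1%), where 3.89% of all genes met that rule. They were NDUFA1, NDUFA2, NDUFA3, NDUFA7, NDUFA11, NDUFA12, NDUFA13, NDUFB2, NDUFB7, NDUFB11, NDUFS5, NDUFS7 and NDUFV1. The opposite was true of 3 members (8.57%), NDUFA8, NDUFB10 and NDUFV2, against 4.72% of all genes. In polysomal RNA, P4 was above P2 by the same rule for 8 members (22.9%) against 3.98%, and below it for NDUFB10, NDUFS4, NDUFS8 and NDUFV2 (11.4%) against 5.26%. The 8 were NDUFA1, NDUFA3, NDUFA11, NDUFA12, NDUFA13, NDUFB7, NDUFB11 and NDUFV1, all of which also met it between P3 and P1. With the authors' values the rule held for 14 members in subpolysomal RNA, against 4.34% of genes, and for 5 in polysomal RNA, against 3.08%. A P number has 1 control and 1 knockdown array, so these are descriptions of array pairs and no test of P numbers was run.

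NDUFA3 and NDUFB10 show the 2 directions and were chosen after their values were seen. NDUFA3, a small subunit of the proximal membrane arm, read 7.75 (P1) and 11.33 (P3) in control subpolysomal RNA and 8.02 and 11.81 in knockdown subpolysomal RNA. In polysomal RNA it read 8.59 (P2), 10.64 (P4) and 11.25 (P5) in control and 7.79, 11.40 and 8.41 in knockdown cells. Its P1 and P2 arrays were low and its P3 and P4 arrays high whichever hairpin the cells carried. NDUFB10, which lies in the distal membrane arm, read 12.52 (P1) and 10.37 (P3) in control and 12.25 and 10.52 in knockdown subpolysomal RNA. In polysomal RNA it read 12.85 (P2), 9.66 (P4) and 11.50 (P5) in control and 11.81, 9.49 and 12.10 in knockdown cells. It was low where NDUFA3 was high on the P3 and P4 arrays.

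The P5 pair divided the hairpins. On the P5 arrays NDUFA3 was lower in knockdown than in control cells by -2.84, NDUFA11 by -2.29, NDUFA2 by -1.89 and NDUFB2 by -1.32, the 4 lowest of the 35. These are differences of 1 pair of arrays with no replicate. The first principal component of all kept probes, 52.1% of their variance, moved the same way, from 24 on control P5 to -19.3 on knockdown P5, and it was 41.5 to 55.3 on the P3 and P4 arrays and -32.6 to -63.9 on the P1 and P2 arrays. Its part in the differences of the members was not tested, and the labels do not say what distinguishes the P numbers. The component was also fitted as a covariate, an alternative added after the values were seen. Limma then called 1 of 35 members, NDUFV1, higher in polysomal RNA of knockdown cells by 0.96 (SE 0.14, adjusted p 0.0383). In that comparison the same fit called 432 of 26902 probes, and whether members were called more often was not tested. In control cells NDUFV1 then differed by 0.68 (adjusted p 0.114), and without the covariate by 0.46 (SE 1.10). That component is computed from the same arrays, so it is not independent of the comparison.

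**Figure D4:**
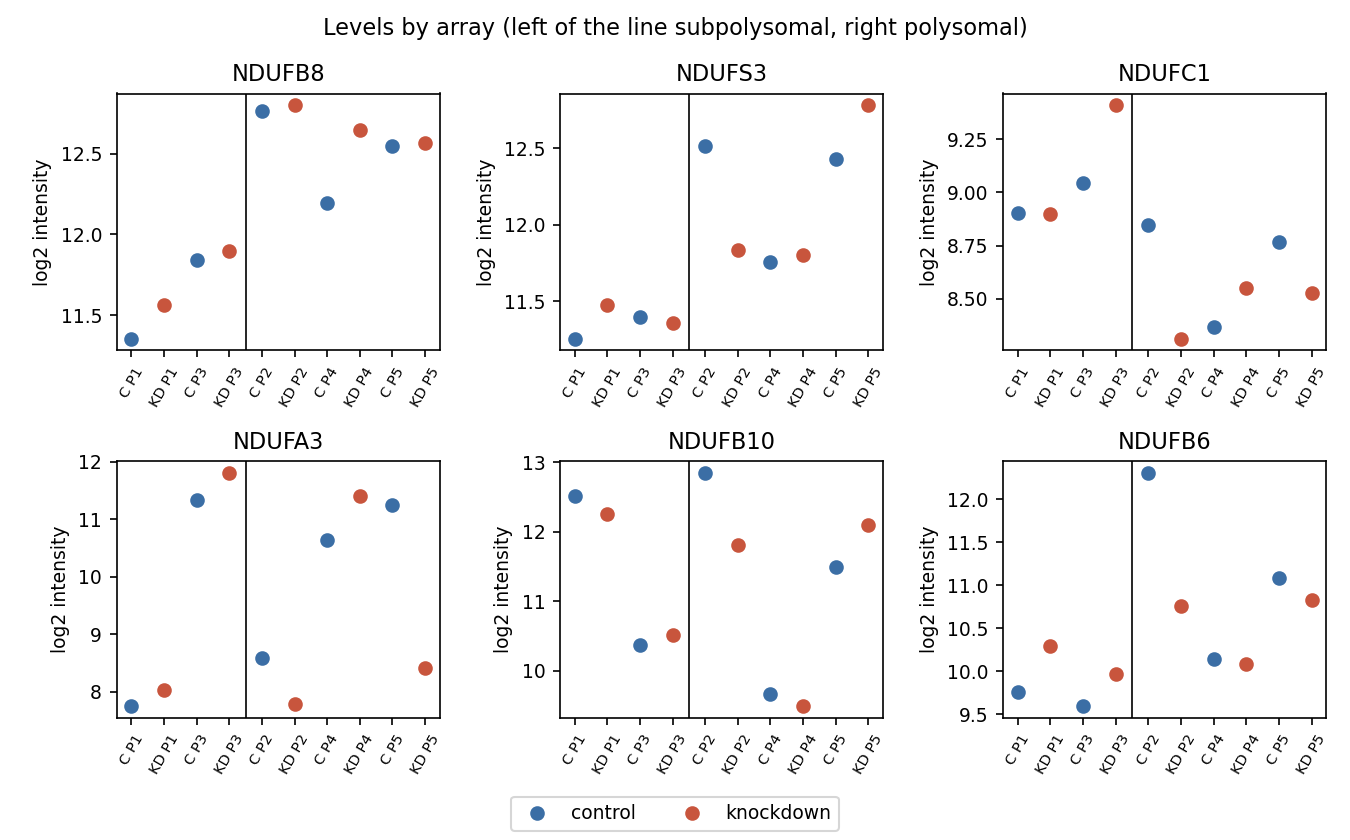
Log2 intensity of 6 subunit genes on each array, control (C) in blue and knockdown (KD) in red, subpolysomal left of the line and polysomal right; vertical scales differ and do not start at 0. NDUFB8 and NDUFS3 are higher and NDUFC1 lower to the right of the line, while NDUFA3 and NDUFB10 change with the P number and NDUFB6 reads 12.31 on control P2.

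No complex I mRNA passed the test for a difference between ATXN2 knockdown and control cells in either pool. In polysomal RNA the median difference over 35 members was -0.04, against 0.01 over all genes, with 12 of 35 higher. It ranged from -0.17 without control polysomal array P4 to 0.04, with 19 of 35 higher, without knockdown polysomal array P2. In subpolysomal RNA it was 0.08, against a value near 0 over all genes (-0.00269), with 24 of 35 higher. Limma called 0 of 26902 probes (0%) in polysomal RNA, 0 (0%) in subpolysomal RNA and 0 (0%) over both pools, with 429, 245 and 237 probes at an unadjusted p under 0.05. With the P number as a block it also called 0, with 1659, 591 and 909 probes under that level. Without the block 1, 0 and 1 members (2.86%, 0% and 2.86%) were under it, NDUFA10 each time, against 1.65%, 0.705% and 0.748% of all genes. With the block NDUFA12, NDUFA10 and NDUFA9 were under it in polysomal RNA and NDUFB3 in subpolysomal RNA. Without quantile normalization the polysomal median was -0.46, with 7 of 35 higher, and the subpolysomal median 0.17, with 29 of 35 higher. The size of both medians thus depended on the scaling, while the all-gene medians lay within 0.02 of 0 in both.

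The pairs did not run one way. The median member difference was 0.07 for P1 and 0.09 for P3 in subpolysomal RNA, with 20 and 25 of 35 higher. In polysomal RNA it was -0.16 for P2, 0.11 for P4 and -0.11 for P5, with 12, 23 and 13 of 35 higher. Erythroid markers were lower with knockdown in P2 for 9 of 9, but higher in P1 and in P4 for 8 of 9. In P3 and P5 they were higher for 5 and 4 of 9. Their part in the P2 value and in the other pairs was not tested. With the authors' values the same medians of the members were 0.17 and 0.20, and -0.80, 0.13 and -0.19. In both scalings, P4 was the polysomal pair in which most members read higher in knockdown cells. The subpolysomal median was -0.08 without knockdown array P3 and 0.37 without control array P3. After quantile normalization, the other respiratory complexes had pair medians of 0.05 (P1) and 0.06 (P3) in subpolysomal RNA. In polysomal RNA they had -0.53 (P2), 0.34 (P4) and -0.47 (P5), with 10, 33 and 10 of 36 higher.

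**Figure D5:**
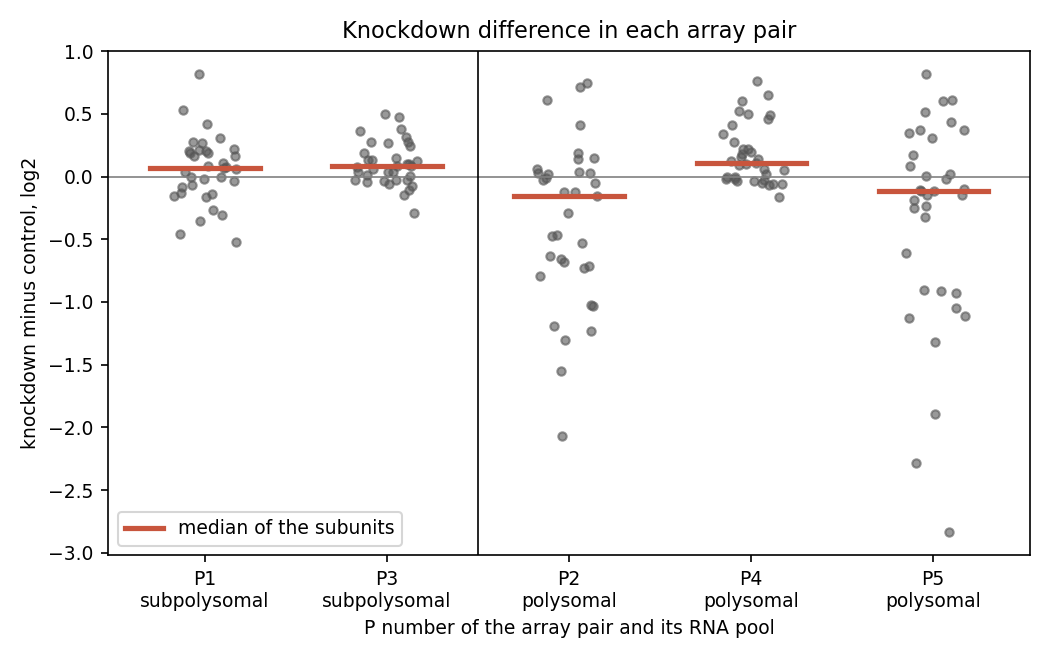
Knockdown minus control log2 difference of 35 subunit genes in each array pair (grey points, spread sideways for visibility), subpolysomal pairs left of the line; red bars are the medians. The medians are 0.07 and 0.09 for P1 and P3 and -0.16, 0.11 and -0.11 for P2, P4 and P5, and the P2 and P5 points reach furthest below 0.

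NDUFA10 had the smallest p of all members for knockdown in polysomal RNA in the fit without the block, where with the block NDUFA12 had it. The control arrays of NDUFA10 there read 11.20 (P2), 11.45 (P4) and 10.99 (P5) and its knockdown arrays 11.81, 11.47 and 11.81. In subpolysomal RNA it read 11.12 (P1) and 10.99 (P3) in control against 11.33 and 11.00 in knockdown cells. The knockdown array was higher in 5 of 5 pairs, and the polysomal groups did not overlap, by 0.02 at the nearest arrays of P4. The polysomal difference was 0.48 (SE 0.15, 95% confidence interval 0.12 to 0.85, limma adjusted p 1, and 0.772 with the P number as a block). It was the only member of 35 whose polysomal hairpin groups did not overlap (2.86%), against 5.19% of all genes. Its second probe went against the first in 2 of 3 polysomal pairs, with differences of -0.21 in P2 and -0.61 in P5 where the brighter probe had 0.61 and 0.82. That probe read 7.89 to 9.65, and the mean of both probes differed by 0.13. On the authors' values the brighter probe differed by 0.13 and the groups overlapped.

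In subpolysomal RNA the hairpin groups did not overlap for 5 of 35 members (14.3%), against 17.3% of all genes. On the authors' values the count was 8 (22.9%), against 17.9% of genes, so the order of the shares depended on the scaling. NDUFV3, an accessory subunit of the N module, read 8.15 (P1) and 8.10 (P3) in control and 8.23 and 8.35 in knockdown arrays. In polysomal RNA it read 7.78 (P2), 8.13 (P4) and 8.17 (P5) in control and 8.20, 8.47 and 8.06 in knockdown arrays. It was thus higher with knockdown in 4 of 5 pairs, by 0.16 (SE 0.17) in subpolysomal and 0.21 (SE 0.14) in polysomal RNA, with a limma adjusted p of 1 for both. NDUFS4 read 10.82 and 11.36 in control and 11.64 and 11.40 in knockdown subpolysomal RNA, a difference of 0.43 (SE 0.84, and 0.24 with the P number as a block). Its polysomal arrays read 13.52 (P2), 11.72 (P4) and 11.21 (P5) in control and 13.36, 11.70 and 11.64 in knockdown cells, with both P2 arrays far above the rest.

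NDUFB6 read 9.77 (P1) and 9.60 (P3) in control and 10.30 and 9.97 in knockdown subpolysomal RNA, 0.45 (SE 0.63, and 0.38 with the P number as a block) higher. In polysomal RNA it read 12.31 (P2), 10.14 (P4) and 11.08 (P5) in control and 10.75, 10.08 and 10.83 in knockdown cells, a difference of -0.62. The control P2 array stood above the others. NDUFS1, the iron-sulfur core subunit of the N module, and NDUFA5, an accessory subunit of the peripheral arm, were lower with knockdown in subpolysomal RNA, but both lay at the background limit. NDUFS1 read 7.64 and 7.64 in control and 7.56 and 7.58 in knockdown subpolysomal RNA, and 7.67, 7.71 and 7.77 against 7.62, 7.84 and 7.59 in polysomal RNA. NDUFA5 read 7.73 and 7.66 against 7.58 and 7.55, and 7.67, 7.60 and 7.64 against 7.82, 7.57 and 7.72. The knockdown subpolysomal arrays of these 2 genes were not above background, so their levels there are only bounds.

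None of the remaining knockdown differences of the members passed the test. In polysomal RNA the lowest were NDUFA3 with -0.96 (SE 1.53), NDUFS5 with -0.86 (SE 0.71) and NDUFA2 with -0.82 (SE 1.01), and after NDUFA10 the highest were NDUFA9 with 0.41 (SE 0.34) and NDUFA6 with 0.36 (SE 0.54). NDUFB9, which binds the acyl carrier protein in the membrane arm, had the third smallest p in this fit without a block, with -0.69 (SE 0.51). With the P number as a block NDUFA12 read -0.54 (SE 0.175), NDUFA9 0.41 (SE 0.14) and NDUFA6 0.36 (SE 0.16), with a limma adjusted p of 0.772 for each. The SEs of NDUFA3, NDUFS5, NDUFA2 and NDUFB9 were then 0.69, 0.47, 0.50 and 0.305. In subpolysomal RNA NDUFA3 read 0.37 (SE 1.88), NDUFC1 0.18 (SE 0.21), NDUFV1 -0.23 (SE 1.21), NDUFB7 -0.21 (SE 1.40) and NDUFS8 -0.19 (SE 0.63). These SEs hold the spread between P numbers, and with the block they were 0.84, 0.19, 0.20, 0.42 and 0.18. Over both pools NDUFA10 read 0.30 (SE 0.12), NDUFV3 0.19 (SE 0.11), NDUFS4 0.26 (SE 0.54), NDUFB9 -0.43 (SE 0.41) and NDUFS5 -0.41 (SE 0.56). With the block the SEs were 0.13, 0.09, 0.15, 0.24 and 0.37. Limma without the block gave all of these differences an adjusted p of 1.

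For the other lists the knockdown medians in polysomal RNA were -0.29 for the other respiratory complexes, -0.07 for the assembly factors, -0.12 for mitochondrial and -0.26 for cytosolic ribosomal proteins. In subpolysomal RNA they were 0.06, 0.01, 0.06 and 0.03. Limma called 0 genes of these lists in either pool (0% of all probes).

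Whether the pool difference itself changed with knockdown was tested as an interaction. Its median over the members was -0.15, against 0.02 over all genes, with 12 of 35 higher. It was 0.06, with 19 of 35 higher, without knockdown subpolysomal array P3 and -0.44 without control subpolysomal array P3. Limma called 0 members and 0 of 26902 probes (0%), with 316 probes and 0 members at an unadjusted p under 0.05. The smallest p belonged to NDUFA5 with 0.20 (SE 0.10), NDUFA10 with 0.37 (SE 0.24) and NDUFC1 with -0.38 (SE 0.27), and the adjusted p was 1 for all. The P number as a random block left the calls at 0, while 1167 probes fell below 0.05 before adjustment. Among the members only NDUFA5, which lay close to background, did so, with an SE of 0.07 (limma p 0.0272, adjusted p 0.982). The lowest values were those of NDUFA3 with -1.33 (SE 2.42), NDUFB6 with -1.08 (SE 0.81) and NDUFA2 with -1.05 (SE 1.59). The highest were those of NDUFA6 with 0.49 (SE 0.85), NDUFS8 with 0.41 (SE 0.81) and NDUFA9 with 0.40 (SE 0.53). On the authors' values the median was -0.74, and NDUFA10 read -0.13 and NDUFS8 -0.81, opposite in sign to the values above.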

How the data were processed

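Intensity values were taken as deposited by the authors, 47323 probes on 10 arrays, on a linear scale with array medians of 193.1 to 194.3. Their background correction and normalization are not stated in the labels, and the submitters' processing notes name R 2.15. A table of unnormalized signals with 20 value columns that match no sample label was not used.

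Values were log2-transformed and quantile-normalized. Background was modelled per array by mirroring the values below the mode (upper tail 0.05), and 26902 probes (56.8%) above it on at least 2 arrays were kept. A gene was represented by its brightest kept probe. Names came from the platform annotation, updated by gene identifier to RefSeq GRCh38.p14 (30113 probes with 1 symbol, 8 with several, 17202 with none). Limma 3.58.1 in R 4.3.3 fitted 4 group means to all arrays, tested 6 comparisons two-sided and adjusted over all kept probes; calls had adjusted p under 0.05. The fit was run on simulated data with independent noise on each array. That noise lacked the shared deviations of same-numbered arrays, so the run does not show how the fit behaves with them.

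The members and lists were chosen with earlier results of these data known. Members were named by rule: those called, otherwise the 3 highest, 3 lowest and 3 smallest p of each comparison, with array values for the 2 smallest p and for those whose hairpin groups did not overlap with pairs of 1 sign. Same-numbered arrays of the hairpins deviated together from their group means, with correlations of 0.917 (P1), 0.763 (P2), 0.917 (P3), 0.769 (P4) and 0.467 (P5) across probes. The P1 and P3 values are equal by construction, because the deviations of 2 arrays from their mean mirror each other. Deviations within a polysomal group also cancel out, so those correlations are not independent of each other. The numbers, taken from the labels, were used to pair the arrays. P number and pool cannot be told apart. Promoter sequences came from RefSeq, GRCh38.p14. Alternatives covered normalization, filter, prior, arrays, block, probe choice, a pseudocount of 16 and left-out arrays.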

Additional observations from a re-analysis of the deposited data

Results flagged for a closer look

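NDUFB6 and NDUFA12 ran in opposite directions in the pools, with all polysomal pairs lower and both subpolysomal pairs higher in knockdown cells. For NDUFB6 the pair differences were 0.53 (P1) and 0.38 (P3) in subpolysomal RNA and -1.55 (P2), -0.07 (P4) and -0.25 (P5) in polysomal RNA. Its pool difference changed by -1.08 with knockdown (SE 0.81, limma adjusted p 1). With the P number as a random block the SE was 0.55. A second NDUFB6 probe had 0.52, 0.30, -1.11, -0.12 and, with the other sign, 0.05 in P5. For NDUFA12, an accessory subunit of the peripheral arm, the pair differences were 0.07 (P1), 0.18 (P3), -0.63 (P2), -0.05 (P4) and -0.93 (P5), and the change was -0.66 (SE 1.36, adjusted p 1). Its SE with that block was 0.76. The pattern held for 2 of 35 members and for 993 of 13903 genes (7.14%).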

How the results depend on the processing

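In the comparisons on which each alternative was run, limma called 0 members under all tested alternatives but 1. Fitting only the arrays compared was run on 4 comparisons and averaging P numbers on 2, and averaged probes gave medians with no test. Medians over members moved, and several changed sign. On the authors' values the polysomal knockdown median went from -0.04 to -0.46 and that of the interaction from -0.15 to -0.74. No median moved by more than the spread of array medians within groups (SD 0.774). That SD is one of levels and is larger than each of the medians in the main fit, so it is no measure of stability. The alternative with a called member was the first component as a covariate, with 1 (NDUFV1) in the knockdown pools. Probes called between the pools, 32 in control and 43 in knockdown cells, were 24 in knockdown cells on the authors' values and 23 after median centring, and in control cells 17 with no filter and 4 above background on all 10 arrays. They were 0 and 0 with a trended, robust prior, 0 and 0 with only the arrays compared, 1 and 1 with P numbers averaged over hairpins, and 179 and 432 with the covariate. With the P number as a replicate block they were 15 in control and 31 in knockdown cells, at a correlation of 0.542, and that block changed no other call. Leaving out 1 array or both arrays of a P number gave 1 to 58 probes in control and 2 to 97 in knockdown cells, the highest without P1 and the lowest without control subpolysomal P1 or P3, control polysomal P5, both P2 arrays or, for knockdown, its subpolysomal P3 array, and 0 to 1 for the interaction. The cause of these shifts was not tested. NDUFB8 stayed higher in polysomal RNA under each alternative, 0.66 to 1.15 in control and 0.27 to 1.11 in knockdown cells, with adjusted p never under 0.119. Standard errors of single members between pools reached 1.71, so for those members differences of that size were not detectable with 2 or 3 arrays per group, and genes near background give only bounds.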
